A study of Mus musculus with 2 samples.

Results

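The axon guidance genes described here are 72 protein-coding genes out of 55536 annotated genes, of which 21951 code for protein. They were chosen by gene symbol alone. They comprise the Eph receptors, ephrins, semaphorins of classes 3 to 7, plexins, neuropilins, netrins and the netrin-G proteins Ntng1 and Ntng2. The netrin receptors Unc5a to Unc5d, Dcc and Neo1, the Slits and the Robos are also included. The tissue was hippocampus of adult female B6CASTF1/J mice, the first-generation offspring of C57BL/6J and CAST/EiJ, from The Jackson Laboratory, 8 to 10 months old, with no treatment named in the labels. Replicate 1 is the library of animal 1 and replicate 2 that of animal 5, each from 300 ng of total RNA with ERCC spike-ins, although both carry 1 donor identifier in the labels. There is 1 group, so no condition was compared, and every SD and ratio below describes the spread of 2 libraries. The labels call the tissue a layer of hippocampus without naming the layer. Markers of dentate granule cells (5 of 5), CA1 pyramidal cells (5 of 5) and CA2 and CA3 pyramidal cells (6 of 6) were all detected.

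Guidance ligands are secreted or membrane-bound proteins that attract or repel growing axons through receptors on the growth cone. Ephrins are tethered to the membrane and bind Eph receptor tyrosine kinases, which form the largest receptor tyrosine kinase family. Semaphorins act through plexins, the secreted class mostly with neuropilins as co-receptors. Slits act through Robos, and netrins act through DCC, neogenin and the UNC5 proteins. In the adult hippocampus the same molecules are known at synapses and on dendritic spines, where EphA4 on neurons meets ephrins on astrocytes.

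Of the 72 genes, 68 were detected, meaning a level of at least 1 TPM in both libraries, TPM being the reads scaled to transcript length and library. That was 94.4%, against 59.3% of all protein-coding genes. A TPM of at least 10 in both libraries was reached by 43 members, or 59.7%, against 38.4% of protein-coding genes. Once detected, they were not high as a group, with a median of 17.3 TPM against 17.6 TPM for all detected protein-coding genes. The members together held 1808 TPM in replicate 1 and 1905.5 TPM in replicate 2, a mean of 1857 ± 69 (SD, n = 2). Depth was 34208349 and 28417193 expected counts, and the members held 174027 and 149506 of the counts. The 4 members not detected were the receptors Epha1, Epha2 and Epha8 and the ligand Efna4.

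**Figure D1:**
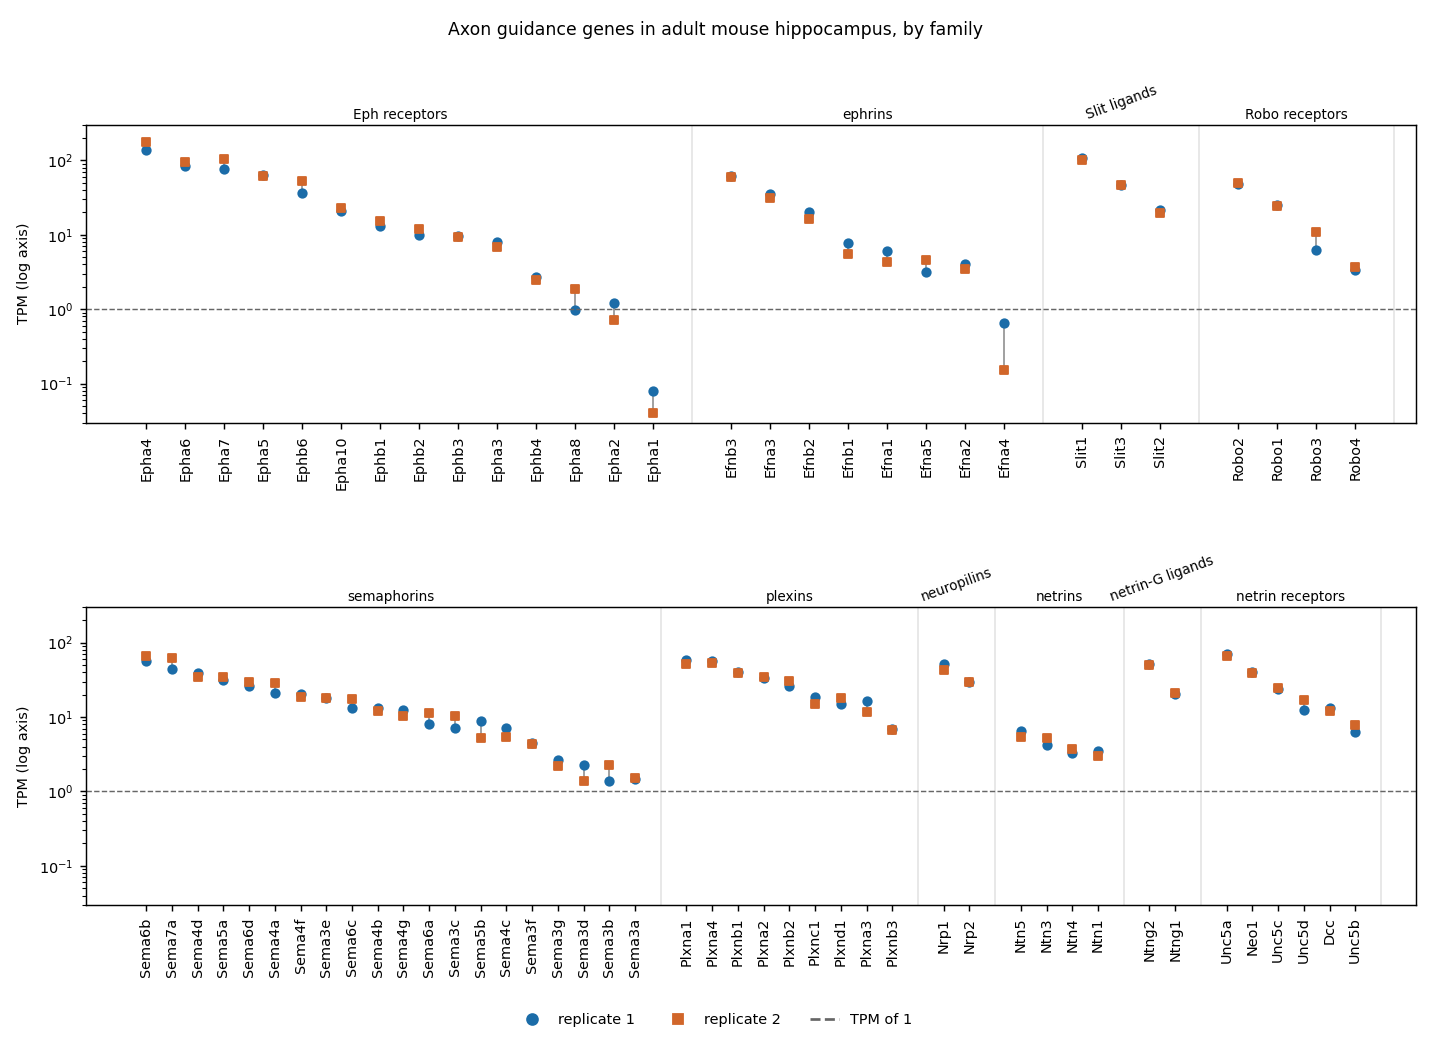
TPM of each of the 72 guidance genes (log axis) in replicate 1 (circles) and replicate 2 (squares), grouped by family and ordered by mean within each. The dashed line marks a TPM of 1, and Epha1 and Efna4 lie below it in both libraries. The group labelled netrin-G ligands holds the netrin-G genes Ntng1 and Ntng2.

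The Eph receptors had the highest summed level of the 10 families. Their 14 genes summed to 466 TPM in replicate 1 and 559 TPM in replicate 2, a mean of 513 ± 66 (SD, n = 2). The EphA receptors held most of this with 430.5 ± 52 TPM, against 82.1 ± 14 TPM for the EphB receptors. Epha4, which binds both ephrin classes, stood at 138 and 175 TPM, a mean of 156 ± 26 (ENSMUSG00000026235.14, chromosome 1, 77367185 to 77515088). It had the highest level of all 72 members, and its gap to the next, Slit1, exceeded the SD of both. Epha6 followed at 84.9 and 94.9 TPM (89.9 ± 7.1) and Epha7 at 76.6 and 103 TPM (89.7 ± 18). These 2 receptors did not differ beyond their spread. Epha5 stood at 62.9 and 62.3 TPM, a mean of 62.6 ± 0.40, below Epha7 in both libraries.

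The highest EphB receptor was Ephb6, which lacks kinase activity, at 36.9 and 52.5 TPM (44.7 ± 11). Between 9.56 and 21.9 TPM on average came Epha10, also known as a kinase-deficient receptor, then Ephb1, Ephb2 and Ephb3. Epha3 reached 7.48 ± 0.85 TPM and Ephb4, known from veins, 2.61 ± 0.17 TPM. The remaining 3 were at the limit of detection. Epha8 stood at 0.97 and 1.86 TPM, Epha2 at 1.22 and 0.71 TPM, and Epha1, an epithelial receptor, at 0.08 and 0.04 TPM from 5 and 2 counts. So the family ran from the highest member of the set to the lowest.

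The ephrins were lower than their receptors, with a summed 139 TPM in replicate 1 and 125 TPM in replicate 2 (132 ± 10). The transmembrane ephrin-B ligands held 85.2 ± 6.5 TPM over 3 genes and the lipid-anchored ephrin-A ligands 46.6 ± 3.7 TPM over 5. Efnb3, an ephrin known from the midline of the spinal cord, led with 61.9 and 59.0 TPM (60.5 ± 2.0; ENSMUSG00000003934.5, chromosome 11, 69554092 to 69560205). Efna3, the ephrin that astrocytes present to EphA4, came next at 35.3 and 31.4 TPM (33.3 ± 2.8). Efnb2 followed at 20.1 and 16.1 TPM (18.1 ± 2.8). Efnb1, Efna1, Efna5 and Efna2 lay between 3.75 and 6.63 TPM on average, and the neighbours in that order did not differ beyond their spread. Efna4 was lowest at 0.66 and 0.15 TPM, from 21 and 4 counts.

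Efna1, Efna3 and Efna4 lie in a row on chromosome 3, with 32.8 kb between Efna1 and Efna3 and 10.4 kb between Efna3 and Efna4. Their levels were 5.23, 33.3 and 0.405 TPM, so the cluster held the ephrin second only to Efnb3 and, next to it, the lowest. The Eph receptors held a like case. Ephb2 and Epha8 are 93.4 kb apart on chromosome 4 with 10.97 and 1.42 TPM.

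**Figure D2:**
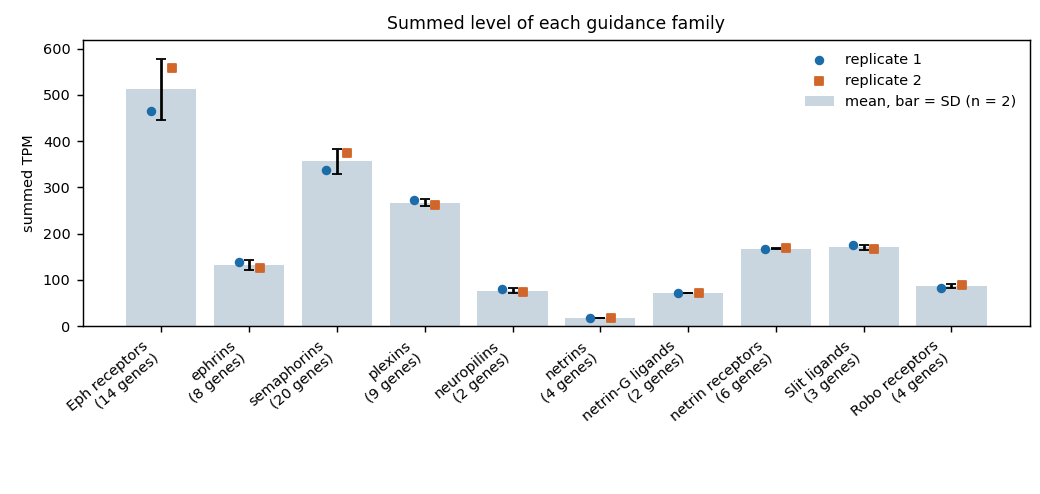
Summed TPM of each family, as bars of the mean with the SD (n = 2) and points for replicate 1 (circles) and replicate 2 (squares). Eph receptors lead at 513 TPM and netrins are lowest at 17.4 TPM. The bar labelled netrin-G ligands is that of the netrin-G genes Ntng1 and Ntng2.

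Semaphorins, the largest family by number, were all detected, 20 of 20, and summed to 338 and 375 TPM (356 ± 27). The transmembrane class 6 held 114 ± 14 TPM over 4 genes and the transmembrane class 4 held 111 ± 2.0 TPM over 6. These classes did not differ beyond their spread. Class 3, the secreted ligands, held 38.6 ± 1.5 TPM over 7 genes, and class 5 held 39.6 ± 0.40 TPM over 2. Sema6b had the highest mean with 56.4 and 65.6 TPM (61.0 ± 6.5; ENSMUSG00000001227.12, chromosome 17, 56123085 to 56140343). Sema7a, the only semaphorin held by a lipid anchor, stood at 44.1 and 62.5 TPM (53.3 ± 13), which was not separated from Sema6b. Sema4d, a ligand of plexin-B1, reached 38.7 and 35.0 TPM (36.9 ± 2.6).

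Within class 3, Sema3e, which binds plexin-D1 directly, was the highest at 18.1 and 17.8 TPM (17.97 ± 0.24). Sema3c followed with 8.65 ± 2.2 TPM and Sema3f, the ligand of neuropilin-2, with 4.41 ± 0.17 TPM. The first semaphorin known to collapse growth cones, Sema3a, had the lowest mean of the family at 1.48 and 1.53 TPM (1.51 ± 0.035). It was not separated from Sema3b, which was lower in replicate 1, and Sema3d was lower in replicate 2. Sema3d, Sema3a and Sema3e lie along 1 stretch of chromosome 5, with 536 kb between Sema3d and Sema3a and 423 kb between Sema3a and Sema3e. Their mean levels in that order were 1.84, 1.51 and 17.97 TPM. The other 12 semaphorins lay between Sema3b at 1.82 ± 0.61 TPM and Sema5a at 32.6 ± 2.1 TPM.

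The receptors of the semaphorins were all detected too. The 9 plexins summed to 272 and 262 TPM (267 ± 7.5), and class A held 159 ± 9.8 TPM of it over 4 genes. Plxna1 stood at 59.3 and 51.8 TPM (55.5 ± 5.3; chromosome 6, 89316314 to 89362620) and Plxna4 at 55.9 and 53.5 TPM (54.7 ± 1.7; chromosome 6, 32144268 to 32588192). They did not differ beyond their spread. Plxnb1, the Sema4d receptor, reached 40.2 and 39.3 TPM (39.7 ± 0.59). Plxna3, Plxnc1, Plxnb2 and Plxna2 ran in that order from 14.2 ± 3.4 TPM to 34.3 ± 0.60 TPM. Plxnd1, the Sema3e receptor, had 15.04 and 17.85 TPM (16.4 ± 2.0), and Plxnb3 was lowest with 6.95 and 6.79 TPM (6.87 ± 0.11). The co-receptor Nrp1, which binds Sema3a, stood at 50.9 and 42.9 TPM (46.9 ± 5.6) and Nrp2 at 29.6 and 30.0 TPM (29.8 ± 0.26). Nrp1 was thus above Nrp2 in both libraries.

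Slits and Robos showed the opposite balance from the ephrins, with the ligands above the receptors. The 3 Slits, secreted repellents, summed to 174 and 167 TPM (171 ± 5.5) and the 4 Robos to 83.2 and 88.8 TPM (86.0 ± 4.0). Slit1 stood at 106 and 100.2 TPM (103 ± 4.0; ENSMUSG00000025020.11, chromosome 19, 41600257 to 41743665). Slit3 had 47.1 and 46.7 TPM (46.9 ± 0.30) and Slit2 21.5 and 19.8 TPM (20.6 ± 1.2), so the order Slit1, Slit3, Slit2 held in both animals. Robo2 led the receptors at 48.7 and 49.96 TPM (49.3 ± 0.88), followed by Robo1 at 24.8 and 24.4 TPM (24.6 ± 0.30). Robo3, known from commissural axons, stood at 6.28 and 10.8 TPM (8.54 ± 3.2). Robo4, known from blood vessels, stood at 3.35 and 3.63 TPM (3.49 ± 0.20). All neighbouring Robos in this order were separated beyond their spread.

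Netrins were the lowest family, with 17.6 and 17.3 TPM over 4 genes (17.4 ± 0.17). Ntn5 stood at 6.56 and 5.35 TPM (5.96 ± 0.86), Ntn3 at 4.16 and 5.23 TPM (4.70 ± 0.76) and Ntn4 at 3.31 and 3.77 TPM (3.54 ± 0.33). Ntn1, the classical netrin, stood at 3.53 and 2.97 TPM (3.25 ± 0.40), which was not separated from Ntn4. On Ntn5, 23.4% of the exon bases overlap exons of Sec1 on the other strand, and it is not known whether the counts are strand-specific. The netrin receptors were higher, with 166 and 168 TPM over 6 genes (167 ± 1.3), not separated from the Slit total.

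Unc5a, a receptor for repulsion by netrin, led them at 69.9 and 66.7 TPM (68.3 ± 2.3; ENSMUSG00000025876.15, chromosome 13, 54949411 to 55006018). Neo1, neogenin, which also binds repulsive guidance molecules, followed at 40.3 and 39.4 TPM (39.8 ± 0.70) and Unc5c at 24.1 and 24.9 TPM (24.5 ± 0.54). Dcc, the receptor for attraction, had 13.1 and 12.2 TPM (12.6 ± 0.60), not separated from Unc5d at 14.7 ± 3.3 TPM. Unc5b was lowest with 6.24 and 7.71 TPM (6.98 ± 1.0). The netrin-G proteins, which are lipid-anchored at synapses and bind other receptors than netrins do, were far above the netrins. Ntng2 stood at 50.98 and 50.7 TPM (50.8 ± 0.20) and Ntng1 at 20.1 and 20.8 TPM (20.5 ± 0.47). Of the exon bases of Ntng2, 558 are shared with 6530402F18Rik on the same strand, which had 19.3 and 18.1 TPM. Reads in the shared bases have to be divided between these 2 genes. Read assignment as a whole added an SD of 10.9 to 1647 counts of Ntng2 in replicate 1 and 9.31 to 1346 in replicate 2.

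The ratio between the animals was taken from counts as replicate 2 over replicate 1. Of the 72 members, 69 had the mean count of at least 50 needed, leaving out Epha1, Epha2 and Efna4. None of the 69 differed at least 2-fold with an interval that excluded a ratio of 1, against 1.10% of the 14434 genes so compared. No p-value was computed in any comparison. Log2 ratios of these members ran from -0.54 for Sema5b to 0.93 for Epha8. The median absolute log2 ratio was 0.17 for the members and 0.14 for all genes compared, and the median coefficient of variation of TPM was 10.4% against 7.70%. In bulk tissue, fewer cells of a type and less RNA per cell cannot be told apart.

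In 41 members a ratio of 1 lay outside the 95% counting interval. It lay above 1 in 23 members (33.3%, against 18.7% of all genes) and below 1 in 18 (26.1%, against 25.6%). By sign alone, 30 of the 69 members compared were higher. The median log2 ratio was -0.02 for the members and -0.02 for all genes compared. The members had more counts, a median of 1230 against 654.5, and intervals narrow with counts. Scaled to the spike-ins, the split of the intervals was 7 higher and 47 lower. That scaling also moved the median of all genes to -0.26 on the log2 scale. Relative to other genes, then, directions below are those after TMM scaling.

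**Figure D3:**
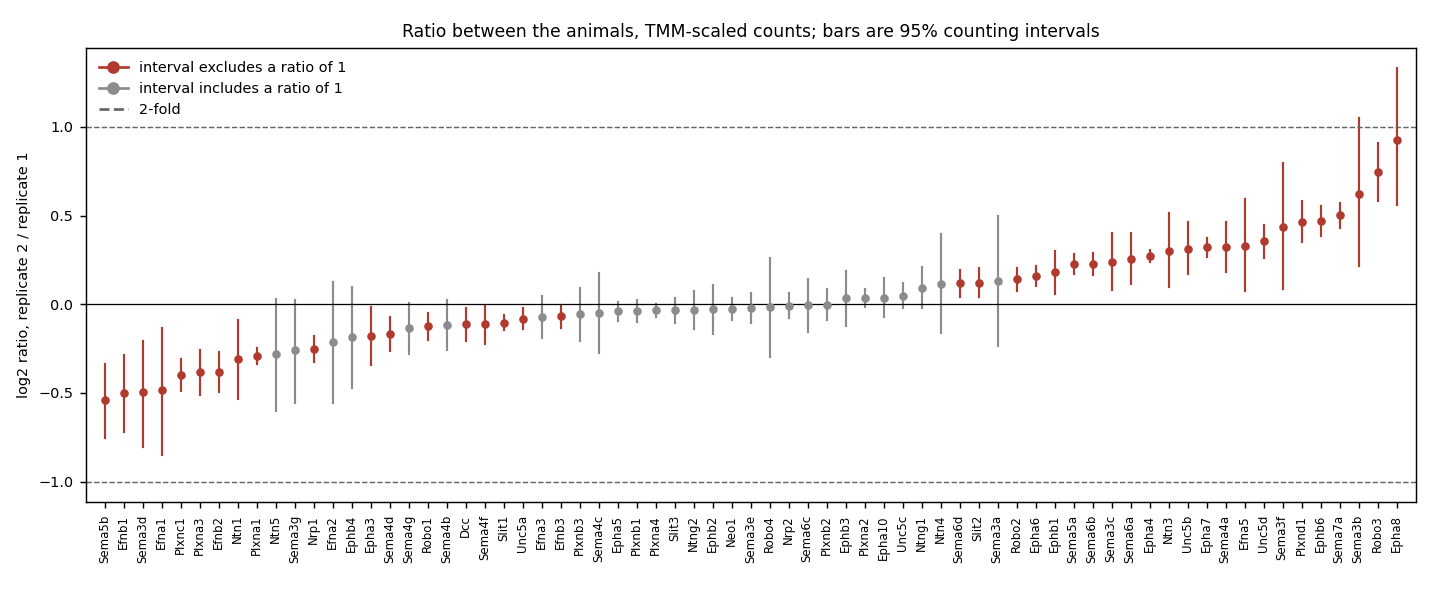
Log2 ratio of replicate 2 over replicate 1 for the 69 members with a mean count of at least 50, in order of the ratio, with 95% counting intervals (red where they exclude a ratio of 1). Dashed lines mark 2-fold, and points run from Sema5b at -0.54 to Epha8 at 0.93, all between those lines.

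Among the 12 Eph receptors compared, 6 intervals lay above 1 and 1 below, where all genes compared had 18.7% above and 25.6% below. The median log2 ratio was 0.10, against -0.02 for all genes compared. Epha8 had the largest ratio, from 94 and 151 counts, a log2 ratio of 0.93 (0.56 to 1.33). Ephb6 had 2141 and 2481 counts, a log2 ratio of 0.47 (0.39 to 0.56), and Epha7 had 5603 and 5849 counts, 0.32 (0.27 to 0.37). Epha4 was higher in replicate 2 by 0.27 (0.24 to 0.31) and Epha6 by 0.16 (0.11 to 0.22) on the log2 scale. Epha5 was near even at -0.04.

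Of the 7 ephrins compared, 4 intervals lay below 1 and 1 above, against 25.6% and 18.7% of all genes compared. The median log2 ratio of the ephrins was -0.21. All 3 ephrin-B genes were among the lower ones. The log2 ratio was -0.50 (-0.72 to -0.28) for Efnb1, -0.38 (-0.49 to -0.27) for Efnb2 and -0.07 (-0.14 to -0.0010) for Efnb3. Efna1 had 178 and 106 counts and a log2 ratio of -0.48 (-0.85 to -0.13), while Efna5 was higher at 0.33 (0.08 to 0.59). Whether receptors and ligands differ in this respect was not tested.

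In the 20 semaphorins, 9 intervals lay above 1 and 4 below, against 18.7% and 25.6% of all genes compared. Their median log2 ratio was 0.06. Sema7a had 2970 and 3517 counts, a log2 ratio of 0.50 (0.43 to 0.57). Sema3b stood at 0.62 (0.22 to 1.05) from 88 and 114 counts. Sema5b at -0.54 (-0.75 to -0.34) and Sema3d at -0.50 (-0.80 to -0.20) were the lowest. For Sema3f the measures differed: its count ratio was 0.43 and its TPM ratio -0.08 on the log2 scale. A gap of at least 0.3 between these measures occurred in 3 of the 69 members (4.35%), the others being Sema6c and Sema4c, and in 6.10% of all genes compared.

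Among all genes compared, intervals lay above 1 in 18.7% and below 1 in 25.6%. Of the 9 plexins, Plxnd1 was higher in replicate 2 by 0.46 (0.35 to 0.58), and 3 were lower. Plxnc1 stood at -0.40 (-0.49 to -0.31), Plxna3 at -0.38 (-0.51 to -0.26) and Plxna1 at -0.29 (-0.34 to -0.25) on the log2 scale. Nrp1 was lower by the same measure, at -0.25 (-0.32 to -0.18), and Nrp2 was near even at -0.01. Robo3 had 515 and 722 counts and a log2 ratio of 0.74 (0.58 to 0.91). Its neighbour Robo4, whose gene lies 0.554 kb away, was near even at -0.02 (-0.30 to 0.26). Among the Slits and the netrin receptors, log2 ratios ran from -0.11 for Dcc to 0.35 for Unc5d.

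Markers of other cells and states also moved between the libraries. Among all 14434 genes compared, intervals lay above 1 in 18.7% and below 1 in 25.6%, and 1.10% differed at least 2-fold. All 8 of the 8 choroid plexus markers with enough counts, out of 12 listed, were at least 2-fold higher in replicate 2, and the list summed to 98.5 and 838 TPM. Kcne2 was listed at 0 in replicate 1. Of the 12 immediate early genes compared, 11 were lower in replicate 2, 4 of them at least 2-fold, with summed levels of 273 and 129 TPM. Of 6 markers of meningeal and perivascular fibroblasts, 4 were lower, with a median log2 ratio of -0.51 and sums of 90.3 and 72.7 TPM. Of 6 oligodendrocyte markers, 5 were higher and 1 lower, with sums of 1419 and 1461 TPM. Interneuron markers were lower in 4 of 6, at log2 ratios from -0.09 to -0.19, with sums of 509.8 and 464 TPM. Of the newborn neuron markers, 1 of the 4 compared was higher and 2 were lower, with Sox11 at least 2-fold lower and sums of 45.4 and 40.8 TPM. Markers of neighbouring thalamus were higher in 2 of 4, with sums of 32.4 and 38.3 TPM, as were those of neighbouring striatum, with sums of 61.8 and 70.1 TPM. Mural cell markers were lower in 3 of 5 and higher in 1, with sums of 79.8 and 74.03 TPM. In the other 9 lists of cell type or neighbouring tissue markers, higher and lower genes differed in number by at most 1. The part of these markers in the ratios of the guidance genes was not tested.

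Guidance receptors are known to be diversified by splicing, and the transcript tables allow the forms to be described. The 72 genes have 448 annotated transcripts, and 56 members with a mean TPM of at least 5 were examined. In 45 of these the same transcript led in both libraries and in both transcript tables. Transcripts not annotated as protein coding held at least 20% of TPM in both libraries in 21 of the 56 (37.5%), against 34.35% of all 10620 protein-coding genes at that level. Shares are of a gene's TPM, and the first table is meant unless the second is named.

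To show what the splicing changes, coding exons that are present or skipped between the same neighbours and that keep the reading frame were examined. There were 45 such exons in these genes. In 19 exons of 12 genes the share of transcripts that include the exon lay between 10% and 90% in both libraries and both tables, with at least 5 TPM from the including and skipping transcripts together in each. Including and skipping transcripts are those with the same neighbouring exons on both sides. Transcripts in which a neighbouring exon differs are left out of a share, even where they carry the exon. This rule was chosen after the values were seen. A further 4 exons, of Sema6a, Sema6d and Ntn5, were within the share limits but under that level in at least 1 library or table. Of the 19 exons, 5 had 33 bases or fewer. The sequences below are those of the short exons and of the exons in the netrin receptors, neuropilin-2 and Epha5 that the following results describe. They are the GENCODE transcript sequences on mm10, 5′ to 3′, with the exon in capitals and 15 bases of the adjoining exons on each side in lower case.
Slit2, 12 bases, chr5:48191003-48191014, plus strand: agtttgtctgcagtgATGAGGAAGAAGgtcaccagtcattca
Robo2, 12 bases, chr16:74008775-74008786, minus strand: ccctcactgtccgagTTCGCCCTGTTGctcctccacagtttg
Unc5d, 15 bases, chr8:28725148-28725162, minus strand: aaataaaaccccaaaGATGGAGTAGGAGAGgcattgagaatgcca
Slit2, 24 bases, chr5:48220967-48220990, plus strand: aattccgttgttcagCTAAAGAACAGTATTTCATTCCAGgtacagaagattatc
Neo1, 33 bases, chr9:58902083-58902115, minus strand: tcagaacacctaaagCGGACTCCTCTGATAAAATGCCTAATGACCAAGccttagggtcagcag
Nrp2, 51 bases, chr1:62812534-62812584, plus strand: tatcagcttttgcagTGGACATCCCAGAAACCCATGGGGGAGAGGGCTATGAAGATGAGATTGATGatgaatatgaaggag
Unc5c, 57 bases, chr3:141786857-141786913, plus strand: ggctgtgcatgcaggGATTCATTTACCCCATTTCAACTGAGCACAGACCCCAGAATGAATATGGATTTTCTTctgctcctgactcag
Epha5, 66 bases, chr5:84117561-84117626, minus strand: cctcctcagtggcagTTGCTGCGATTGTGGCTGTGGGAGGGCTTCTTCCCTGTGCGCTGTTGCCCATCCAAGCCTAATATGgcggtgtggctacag
Unc5a, 168 bases, chr13:54997193-54997360, plus strand: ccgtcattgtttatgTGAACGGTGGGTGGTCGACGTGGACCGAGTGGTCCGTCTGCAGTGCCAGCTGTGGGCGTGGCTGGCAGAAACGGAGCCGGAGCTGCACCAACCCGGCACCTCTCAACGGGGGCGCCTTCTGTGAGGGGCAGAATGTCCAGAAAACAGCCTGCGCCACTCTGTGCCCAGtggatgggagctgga
Unc5d, 168 bases, chr8:28760725-28760892, minus strand: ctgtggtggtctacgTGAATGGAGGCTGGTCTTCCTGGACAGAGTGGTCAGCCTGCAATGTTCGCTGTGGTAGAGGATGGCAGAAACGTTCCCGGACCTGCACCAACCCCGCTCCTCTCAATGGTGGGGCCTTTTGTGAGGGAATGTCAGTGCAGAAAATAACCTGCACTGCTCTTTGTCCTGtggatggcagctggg

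The shortest of these exons, 12 bases or 4 codons, occurred in both a ligand and its receptor. The Slit2 exon was included in 59.4% and 61.0% of TPM in the 2 libraries (60.2 ± 1.1%), and in the second table in 64.5% and 64.4%. The 12-base exon of Robo2 was included in 61.3% and 62.9% (62.1 ± 1.2%), and in the second table in 72.7% and 72.6%. Part of the including transcripts of Robo2 is Robo2-207, a processed transcript with 11.1 and 7.98 TPM. A further Slit2 exon of 24 bases was included in 20.2% and 23.3% (21.7 ± 2.3%). For this exon the second table gave a wider spread in the other direction, 30.6% and 18.8%. Including and skipping forms of both genes were thus present together in each animal.

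Robo2 also had 2 longer alternative exons near its 3′ end, of 126 and 273 bases, included in 22.9 ± 5.5% and 35.7 ± 1.0%. Robo3, a receptor known for isoforms that differ by intron retention, had the retained-intron transcript Robo3-206 at 26.8% and 30.1% of TPM. Of its coding transcripts, Robo3-202 held 33.3% and 26.7% and Robo3-201 held 20.5% and 27.6%. Slit1 was split between 2 coding ends that share 35 coding exons. Slit1-203, of 1458 codons, held 47.9% and 50.1%, and Slit1-201, of 1531 codons, held 46.6% and 42.4%. Slit1-201 continues through 2 further coding exons, whereas Slit1-203 ends in 1.

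The netrin receptors differed from each other at an exon of equal length. Unc5a and Unc5d each have a 168-base exon numbered 6 in the full transcript, and the printed exons are identical at 126 of 168 bases (75.0%). In Unc5a it was included in 14.9% and 8.36% (11.6 ± 4.7%), and in the second table in 21.8% and 15.6%. In Unc5d it was included in 79.4% and 73.5% (76.5 ± 4.2%), and in the second table in 70.4% and 60.4%. The gap between the genes exceeded the SD of both in either table. Unc5a fell below the 10% limit in replicate 2, and it was added because of this comparison, after its values were seen. The leading transcript, Unc5a-202 of 842 codons, held 79.6% and 84.9% of Unc5a.

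Unc5c had a different exon of 57 bases, included in 32.99% and 31.9% (32.4 ± 0.79%), and in the second table in 39.0% in each. Unc5d had a further exon of 15 bases, included in 70.3% and 57.6% (63.9 ± 8.9%). The 33-base exon of Neo1 was included in 74.2% and 78.7% (76.5 ± 3.2%), and in the second table in 65.8% and 66.7%. This value rests on Neo1-201 and Neo1-202, of 1492 and 1465 codons, which differ elsewhere as well. Dcc was divided by a splice site that adds 20 codons. The longer Dcc-202 held 58.7% and 57.3% of TPM and the shorter Dcc-201 held 34.5% and 35.0%.

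**Figure D4:**
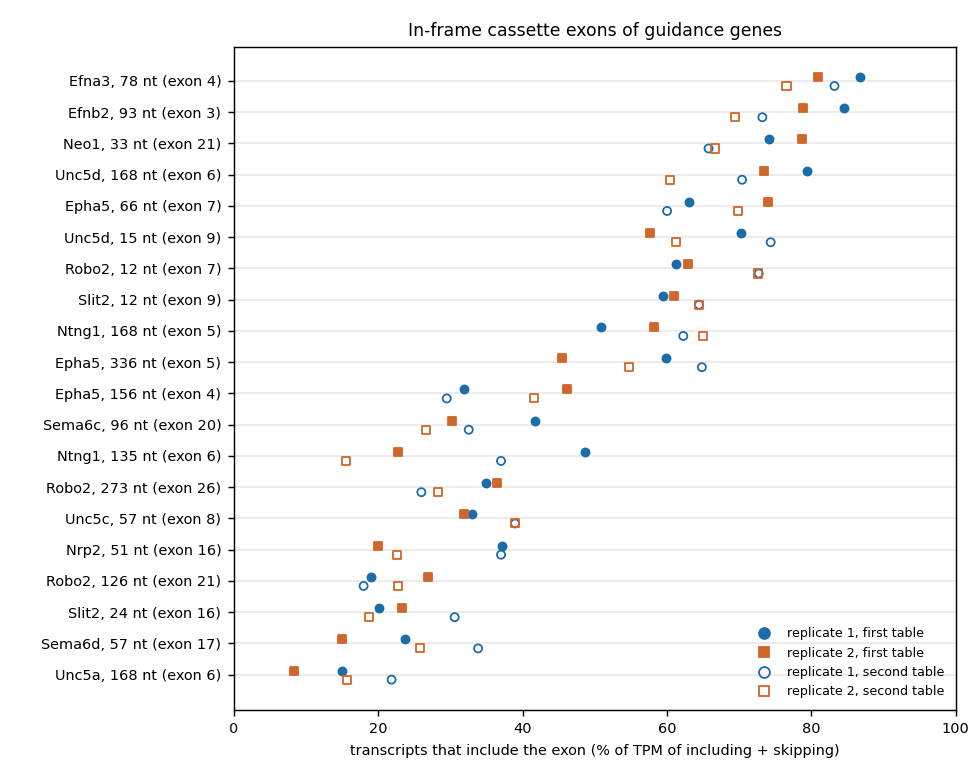
Share of TPM from transcripts that include each in-frame exon, in percent of including plus skipping transcripts with the same neighbouring exons. Replicate 1 is shown as circles and replicate 2 as squares, with the first table filled and the second open. The 168-base exon is near the bottom for Unc5a (11.6% on average) and near the top for Unc5d (76.5%).

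Neuropilin-2 has forms with different membrane-spanning and intracellular ends, and both were present at like levels. Transcripts ending in one last coding exon (Nrp2-205 and Nrp2-201) held 42.5% and 43.6% of TPM, and 4 transcripts ending in another held 47.5% and 45.1%. Within the second set, Nrp2-202 includes the 51-base exon and Nrp2-204 skips it. Between them the including share was 37.2% and 19.9% (28.6 ± 12%). The second table also gave this wide spread between the animals, at 37.0% and 22.6%. In Efnb2 a 93-base exon was included in 81.7 ± 4.0% and in Efna3 a 78-base exon in 83.9 ± 4.1%. The skipping transcript of Efnb2 is annotated with incomplete ends.

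Among the Eph receptors, Epha7 was led by short forms, and it was singled out after its values were seen. Truncated EphA7 receptors without the kinase domain are known from brain. Epha7-202 and Epha7-204, of 610 and 626 codons, share their first 9 coding exons with the full Epha7-201 of 998 codons, which has 17, and each then ends in an exon of its own. Together the short forms held 59.4% and 63.2% of TPM, against 26.2% and 20.4% for the 2 long forms. The second table gave 54.7% and 58.7% short and 26.2% and 21.3% long. In TPM, the short forms stood at 45.6 and 64.9 and the long forms at 20.1 and 20.97. The noncoding Epha7-205 stood at 6.26 and 10.8 TPM. The long forms were therefore near even between the libraries, as was the short form Epha7-204, at 15.1 and 14.8 TPM. Higher in replicate 2 were Epha7-202, at 30.5 and 50.1 TPM, and Epha7-205.

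Epha5 had 3 of the 19 alternative exons, as Robo2 did. The printed 66-base exon was included in 63.0% and 74.0% (68.5 ± 7.7%). For an exon of 156 bases, Epha5-202 held 39.0 ± 10.1% against Epha5-201 and Epha5-204, which skip it. An exon of 336 bases, which directly follows it, was included in 52.7 ± 10.3% against Epha5-202. Transcripts with both exons are left out of the 156-base value, which is therefore not the share of all Epha5 transcripts with that exon. The retained-intron transcript Epha5-209, with 3.44 and 4.58 TPM, counts as including the 336-base exon and as skipping the 66-base exon. No coding transcript of Epha5 held more than 24.8% in either library of the first table. Epha6 was led by the coding Epha6-201 at 70.4% in each library, with the retained-intron transcript Epha6-202 at 19.2% and 19.6%. Epha10-202, whose coding sequence is annotated as incomplete, held 60.8% and 57.2% of Epha10.

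The other members with divided transcripts were netrin-G proteins, semaphorins and plexins. In Ntng2 the coding Ntng2-204 held 38.6% and 36.6%, and Ntng2-211, annotated for nonsense-mediated decay, held 38.6% and 37.8%. Ntng1 had 2 alternative exons, of 135 and 168 bases, included in 35.7 ± 18% and 54.6 ± 5.2%. For the first of them the libraries were far apart, at 48.7% and 22.7%. The value for the 168-base exon leaves out Ntng1-202 and Ntng1-205, which carry both exons. Sema4d was led by Sema4d-204 with 37.3% and 42.4%, a model of 185 codons with incomplete ends, ahead of the full Sema4d-201 with 33.3% and 31.25%. In Sema6d an exon of 57 bases was included in 19.3 ± 6.2%, from Sema6d-204 against Sema6d-201, Sema6d-202 and Sema6d-208. Other transcripts, such as Sema6d-207, carry this exon next to a different one and are left out. The value is therefore not the share of all Sema6d transcripts with the exon. In Sema6c an exon of 96 bases was included in 36.0 ± 8.1%. Part of its including transcripts is Sema6c-209, a retained-intron transcript with 1.75 and 1.94 TPM.

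The noncoding shares of the 21 genes past 20% ran from 21.6% in Sema6d to 52.3% in Ntng2 as means of both libraries. Plxna3 followed Ntng2 with 50.4% and 48.9%, and Sema6c had 47.6% and 50.6%, both named here after their values were seen. In Plxnd1 noncoding transcripts held 50.6% and 41.6%, in Plxnb3 45.5% and 30.9%, in Slit2 40.1% and 26.9%, and in Sema5a 32.9% and 25.9%. In Plxnd1 the leading transcript differed between the tables in replicate 1. Plxnd1-201, the coding form, held 49.4% and 58.4% in the first table but 35.8% and 59.1% in the second.

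Other genes of the guidance pathways were examined as 6 lists with 61 genes. Most are effectors downstream of these receptors, and 16 are other ligands and co-receptors. Of the 61 genes, 60 were detected. None of the 60 compared differed at least 2-fold, against 1.10% of all genes compared. Their median absolute log2 ratio was 0.11, against 0.14 for all genes compared. Among collapsin response mediators, which carry the semaphorin signal to microtubules, 5 of 5 were detected, led by Dpysl2 at 307 ± 16 TPM and Crmp1 at 108 ± 13 TPM, with Dpysl5 lowest at 14.03 ± 2.8 TPM. Of the 10 other semaphorin and plexin effectors, Mical2, an oxidase of actin, stood at 292 ± 12 TPM, Arhgef12 at 76.7 ± 0.91 TPM and Fes at 2.84 ± 0.81 TPM. Among the effectors of ephrins and Eph receptors the levels were far apart. Chn1, alpha-chimaerin, a Rac inactivator that acts below EphA4, had 827 ± 67 TPM, Kalrn, a Rac activator below EphB receptors, 265 ± 29 TPM, and Vav2 4.11 ± 0.45 TPM. All 11 of them were detected.

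The Slit and Robo effectors, 9 of 9 detected, were led by Srgap3 at 136 ± 17 TPM and Enah at 95.4 ± 5.1 TPM, with Srgap1 lowest at 5.86 ± 0.64 TPM. Netrin and DCC effectors, 10 of 10 detected, included the small GTPases Rac1 at 197 ± 8.4 TPM and Cdc42 at 159.95 ± 3.8 TPM, with Ablim3 lowest at 10.6 ± 0.91 TPM. Of 16 other ligands and co-receptors, 15 were detected. Nrcam, a cell adhesion partner of neuropilins, led with 276 ± 26 TPM, ahead of Lrrc4b, netrin-G ligand family, at 142 ± 3.8 TPM. Draxin, a secreted repellent that binds DCC, was not detected, at 0.12 and 0.14 TPM. Intervals lay above 1 in 12 of the 60 genes (20%) and below 1 in 23 (38.3%), against 18.7% and 25.6% of all genes.

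The members were longer than most genes, with a median genomic span of 57.5 kb against 25.9 kb for detected protein-coding genes, and had a like number of transcripts, a median of 5 in each set. Within 1000 kb of each other lay 12 pairs of neighbouring members. Exon bases of 19 members overlap those of another gene, in 5 cases on the same strand. The spread that read assignment adds to a count was 0 in 69 of the 72 members in both libraries. The exceptions were Ntng2, Sema3a and Plxnc1, of which Ntng2 had the largest, an SD of 10.9 on 1647 counts.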

How the data were processed

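Total RNA-seq of hippocampus gave 2 libraries, taken as 2 animals from their animal numbers, although they share a donor identifier. Expected counts (gene table and first transcript table, RSEM layout) and estimated counts (second transcript table, kallisto layout) were deposited without normalisation, per the file headers. TPM was deposited length-normalised by the authors. FPKM was also deposited and entered 1 alternative. Transcript shares in percent were deposited and were recomputed here from TPM. The posterior SD of counts was deposited as a signal, per the file headers. Build mm10 and GENCODE release 21 come from the accompanying file notes. Not given in the sources used here: the aligner, versions, strand setting and any treatment of the CAST/EiJ allele.

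Rounded counts of all annotated genes were scaled by TMM in edgeR 4.0.16 (R 4.3.3), with a prior count of 2. Effective library sizes were 34038040 and 28448001. Ratios have exact Clopper-Pearson 95% intervals, which cover counting error only. Levels of 2 genes were called separated where the gap exceeded both SDs in the same direction in both animals. Values were printed for the 3 highest members and the lowest of each family, all of families of up to 4, members not detected, and 16 isoform genes. DESeq2 1.42.0, other scalings, filters and tables were alternatives. The ratio step was tested on simulated data. Members and lists were chosen with earlier results of these data known. No protein or genome sequence was used here.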

Additional observations from a re-analysis of the deposited data

How the results depend on the processing

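The number of detected members was 68, and it was 69 without replicate 1 and 69 without replicate 2. In the second transcript table, Epha2 stood at 2.27 and 2.01 TPM, above the detection limit in both libraries. No member differed at least 2-fold between the animals under DESeq2 size factors, total counts, spike-in totals, a prior count of 0.5 or the second transcript table. With a mean count of at least 10, or with no count minimum, 1 member did, Efna4, from 21 and 4 counts. The median absolute log2 ratio of the members was 0.17, and 0.28 under spike-in totals. TPM of the second transcript table was lower for most families. It gave 446 for Eph receptors, 231 for plexins, 65.2 for neuropilins and 17.1 for netrins. It also gave 67.8 for netrin-G proteins, 147 for netrin receptors and 152 for Slits, and it was higher for Robos at 93.0. The cause was not tested. Family totals without either replicate ran as given per library in the text. Of the 19 exon shares, 10 moved by more than the SD between animals in the second table. The levels of 40 members moved in that table and those of 32 did not, with Plxnb2 going from 28.5 to 19.3 TPM. No paired analysis was possible because the samples form 1 group. Low counts limit Epha1, Epha2 and Efna4.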
